A study of Oryza sativa with 27 samples.

Results

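The step from 2 to 3 days after pollination (DAP) was followed in the bottom part of the rice (Oryza sativa) embryo sac, the smaller, lower piece that holds the embryo according to the labels. The members were the 6 arrays labelled as bottom part at these days, 3 at 3 DAP and 3 at 2 DAP, out of 27 arrays in the series. Both groups came from the same kind of plant, grown in paddy fields at Mishima in Japan under normal conditions, and differed in the day of collection alone as far as the labels go. No strain or cultivar name is given in the labels, and no agent or genetic change is named for either group. Total RNA of each sample was turned into biotin-labelled cRNA and hybridised to an Affymetrix rice array. The rest of the series holds the bottom part before pollination and at 1 and 4 DAP, and the larger top part, mainly endosperm, at the same 5 stages. The labels call arrays of a group biological replicates and do not say whether they came from separate plants. The p-values below therefore rest on the spread between arrays within groups, pooled over the whole series unless a smaller fit is named. That spread may in part be technical.

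In a rice grain the fertilised egg divides into a globular embryo while the neighbouring endosperm first multiplies its nuclei without walls and then forms cells. The maternal nucellus is broken down and the pericarp around the seed turns green and imports sucrose, which the filling endosperm later stores as starch. Mitotic cyclins and B-type cyclin-dependent kinases drive a cell into division, kinesin motors build and move the spindle and the phragmoplast that lays down the new wall, and histones package the DNA copied beforehand.

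Each value is the deposited intensity of a probe set divided by the 75th percentile of its own array, so a value of 1 equals that percentile. Changes are differences of log2(value + 0.13), 3 DAP minus 2 DAP, and they understate the change of genes with low values. They are relative to that percentile, so a change in total RNA per cell is not measured. A gene was called when its Benjamini-Hochberg adjusted p in limma, fitted to 29332 rice probe sets on all 27 arrays, was under 0.05. The brightest tested probe set stood for each of 15275 genes.

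Replicate 3 stood apart at 3 DAP, and at 2 DAP replicates 2 and 3 lay about equally far from their group mean. Around its group mean the root mean square deviation of log2 values was 0.379, 0.263 and 0.516 for replicates 1, 2 and 3 at 3 DAP, against 0.204, 0.356 and 0.367 at 2 DAP. Over the tested probe sets, replicate 3 at 3 DAP correlated at r = 0.863 and 0.902 with the other 3 DAP arrays and at 0.953 with replicate 3 at 2 DAP. Replicates 2 and 3 at 2 DAP correlated at 0.961 and 0.956 with replicate 1 of that day, and at 0.903 with each other. The 18S ribosomal control signal was 0.200, 2.37 and 9.26 on the 3 DAP arrays and 0.280, 4.202 and 0.796 on the 2 DAP arrays. Changes are also given without replicate 3 of both days for the called genes and for other named genes whose call it altered. The part of RNA quality or of the hybridisation in these deviations was not tested.

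In limma on all arrays 20 probe sets were called, 15 higher and 5 lower at 3 DAP, which is 0.0682% of those tested (0.0511% higher and 0.017% lower). Without replicate 3 of both days the count was 335, with 174 higher and 161 lower (1.14%), and all 20 were among them. With the replicate number as a block it was 93, with 37 higher and 56 lower (0.317%), again including all 20. These calls rest on the spread estimated over the whole series. With the block fitted on the 6 arrays or on the 15 bottom arrays, 0 probe sets were called. A fit of the 6 arrays alone called 0 probe sets in limma, and 1172 of 29332 had an unadjusted p under 0.05. The fit of all arrays had 1876 of 29332 at that threshold (3.15% higher and 3.25% lower). It too called 0 probe sets once replicate 1 or replicate 2 of either day was left out. Without replicate 3 at 2 DAP alone 304 probe sets were called (57 higher, 247 lower), and without replicate 3 at 3 DAP alone 196 (178 higher, 18 lower).

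**Figure D1:**
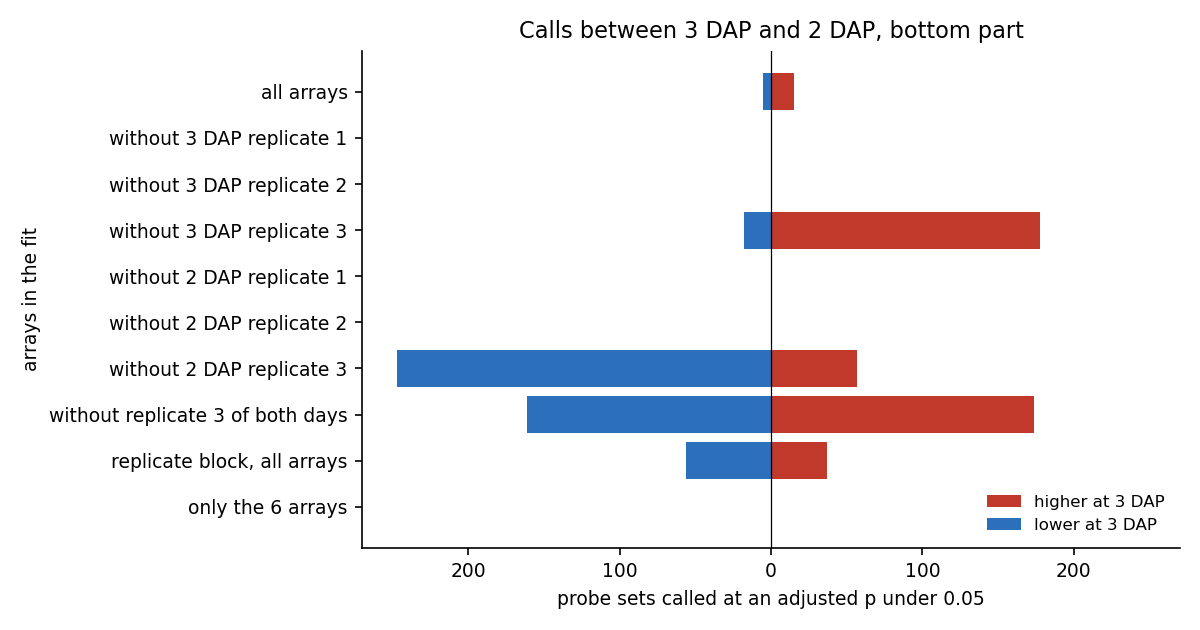
Bars give the number of probe sets called at an adjusted p under 0.05 in limma (x axis), higher at 3 DAP to the right and lower at 3 DAP to the left, for each choice of arrays in the fit (y axis). Leaving out replicate 3 of both days gave 335 calls, the replicate block gave 93, all arrays gave 20, and leaving out replicate 1 or 2 of either day gave 0.

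In none of the 20 probe sets did the arrays of the days overlap; over all probe sets tested, 5.56% lay wholly above and 2.97% wholly below. Of the 20, 16 matched a single gene and 4 had no single gene; together they stood for 15 genes, 10 higher (0.0655% of genes tested) and 5 lower (0.0327%). Without replicate 3, 0.648% of genes were called higher and 0.773% lower, and with the replicate block 0.151% and 0.275%. The largest rise among the 20 was in a probe set left unnamed here (log2 change 4.13 ± 0.63, limma adjusted p = 0.0234). Among the genes LOC4332927 rose most, at 24.9, 10.6 and 1.22 in the 3 DAP bottom parts, against 0.366, 0.312 and 0.737 in the 2 DAP bottom parts. All 3 DAP arrays were above all 2 DAP arrays, with replicate 3 lowest at 3 DAP and highest at 2 DAP. Its log2 change was 3.63 ± 0.60 (SE; limma adjusted p = 0.0309), or 5.13 ± 0.32 without replicate 3 (adjusted p = 2.49e-08). In these bulk samples a change in the number of cells of a type and a change in RNA per cell cannot be told apart. That holds for this gene and all that follow.

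LOC4323973 rose to 7.06, 2.94 and 0.319 at 3 DAP, against 0.109, 0.129 and 0.128 at 2 DAP, a log2 change of 3.09 ± 0.56 (limma adjusted p = 0.0432), or 4.24 ± 0.33 without replicate 3. LOC4337864 reached 27.1, 14.1 and 3.16 at 3 DAP, against 1.32, 0.785 and 1.53 at 2 DAP, a log2 change of 3.06 ± 0.47 (limma adjusted p = 0.0234), or 4.10 ± 0.34 without replicate 3. Averaging the probe sets of LOC4337864 gave 2.47. Neither gene's groups overlapped, and in both the replicate 3 array was the lowest of the 3 DAP arrays by a wide margin. The annotation used here gives these 3 genes a locus number and no role.

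HGGT, the homogentisate geranylgeranyl transferase that commits cereals' plastids to tocotrienols, the vitamin E forms of the grain, rose from a low level. Its values were 0.594, 0.506 and 0.294 at 3 DAP, against 0.163, 0.162 and 0.188 at 2 DAP. The groups did not overlap, and the log2 change was 0.95 ± 0.18 (limma adjusted p = 0.0493; 1.22 ± 0.19 without replicate 3). OsC3H1, a zinc finger protein of the CCCH class, rose to 4.45, 2.68 and 1.67 at 3 DAP, against 0.940, 0.865 and 1.07 at 2 DAP, by 1.39 ± 0.26 on the log2 scale (limma adjusted p = 0.0471; 1.80 ± 0.27 without replicate 3). Again replicate 3 was the lowest 3 DAP array and the highest 2 DAP array.

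The other 5 genes that rose carried locus numbers only, LOC4338521, LOC4347436, LOC4326725, LOC4349136 and LOC4351732, with log2 changes between 1.31 and 1.51 (1.59 to 2.15 without replicate 3). LOC4351732 averaged 0.922 ± 0.377 in the 3 DAP bottom part and 0.273 ± 0.029 in the 2 DAP bottom part (SD, n = 3 each), with 0.265 and 0.220 as the means of 2 top arrays at 3 and 2 DAP. That difference of steps between the parts was 1.13 on the log2 scale and was not called (limma adjusted p = 0.93).

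The 5 genes that fell also had locus numbers only. LOC4347346 fell to 1.10, 1.37 and 1.47 at 3 DAP, against 6.84, 5.70 and 2.81 at 2 DAP, a log2 change of -1.78 ± 0.32 (limma adjusted p = 0.0381; -2.23 ± 0.34 without replicate 3). LOC4326518 fell to 0.205, 0.245 and 0.265 at 3 DAP, against 1.81, 1.14 and 0.473 at 2 DAP, a log2 change of -1.64 ± 0.29 (limma adjusted p = 0.0381; -2.15 ± 0.27 without replicate 3). LOC4347773 fell to 1.47, 1.06 and 0.928 at 3 DAP, against 3.73, 5.34 and 2.49 at 2 DAP, a log2 change of -1.59 ± 0.28 (limma adjusted p = 0.0381; -1.74 ± 0.32 without replicate 3). In each of these genes the groups did not overlap and replicate 3 was the lowest 2 DAP array. LOC4346975, whose probe set is of a type that can match further transcripts, and LOC4336342 fell by 1.51 and 1.14 on the log2 scale (both limma adjusted p = 0.0493), and without replicate 3 their log2 changes were -1.74 and -1.31.

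**Figure D2:**
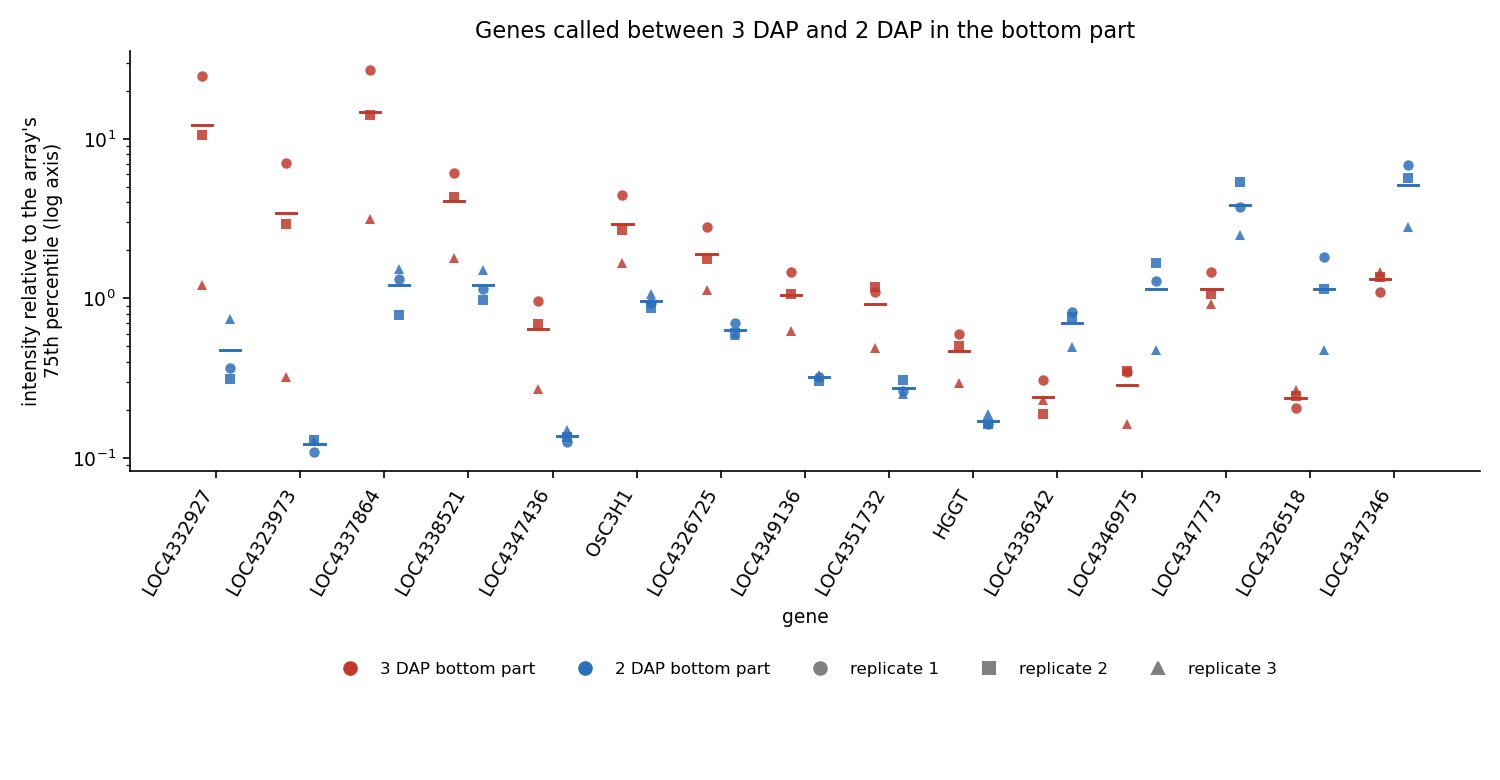
Intensity relative to the array's 75th percentile (y axis, log scale) of the 15 called genes (x axis), 3 DAP bottom arrays in red to the left of 2 DAP bottom arrays in blue, with symbols for replicates and bars for means. No gene's groups overlap, and among the genes that rose the replicate 3 array (triangle) is the lowest 3 DAP point.

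Wx, OsAGPS2 and OsSUS3, genes of grain filling, had their highest values in replicates 1 and 2 of 3 DAP. Wx, the enzyme of amylose synthesis bound to starch granules, read 6.68, 0.850 and 0.169 at 3 DAP, against 0.118, 0.109 and 0.174 at 2 DAP. Replicate 1 at 3 DAP was far above the rest, replicate 2 was in between, and replicate 3 lay within the 2 DAP values. Wx was not called on all arrays (log2 change 2.26 ± 0.70, limma adjusted p = 0.337), and without replicate 3 it was called higher (3.41 ± 0.68, adjusted p = 0.0145). Its probe set is of a type that can match further transcripts, and averaging the gene's probe sets gave a log2 change of 1.47 (limma adjusted p = 0.445). It was the single call, higher without replicate 3, among 9 starch synthesis genes, 6 of which had a log2 change above 0. Over all genes tested, 7587 log2 changes were above 0 and 7688 below. The list's median was 0.18, against -0.00 for all genes tested, and 0.10 without replicate 3. OsAGPS2, the small subunit of ADP-glucose pyrophosphorylase, which makes the sugar nucleotide for starch, read 14.9, 6.31 and 4.06 at 3 DAP, against 4.16, 3.65 and 3.60 at 2 DAP. Its groups overlapped at the replicate 3 array of 3 DAP (limma adjusted p = 0.576, 0.158 without replicate 3).

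Among 24 tested genes of sucrose transport and cleavage none was called on all arrays in limma, and the median log2 change was 0.20. At an unadjusted p under 0.05 were 4 higher and 2 lower, against 503 and 628 of all 15275 genes tested. Of the 24, 4 had all 3 DAP arrays above all 2 DAP arrays, and 1, OsSUT5, had them all below. Over all genes tested, 4.5% lay wholly above and 3.4% wholly below. OsSUS3, a sucrose synthase that splits imported sucrose, read 36.7, 17.7 and 3.70 at 3 DAP, against 8.29, 8.37 and 4.62 at 2 DAP. Replicate 3 at 3 DAP was its lowest array of all 6, and without replicate 3 the gene was called higher (log2 change 1.60 ± 0.33, limma adjusted p = 0.0184; 0.96 ± 0.50 and 0.811 on all arrays). The sucrose exporter OsSWEET11 showed no such dip, with 71.1, 57.98 and 72.1 at 3 DAP, against 41.2, 39.3 and 49.98 at 2 DAP. Its groups did not overlap and it was not called (log2 change 0.62, limma adjusted p = 0.55). OsSWEET15, another exporter of that family, read 2.29, 1.64 and 1.89 at 3 DAP, against 1.09, 0.731 and 1.08 at 2 DAP (log2 change 0.93 ± 0.29, limma adjusted p = 0.352). The 2 other members with all 3 DAP arrays higher were OsSUT1, a sucrose transporter, and the sucrose synthase OsSUS4. OsPPDKB, the pyruvate orthophosphate dikinase of the grain, read 8.60, 3.51 and 4.71 at 3 DAP, against 2.43, 1.65 and 3.07 at 2 DAP. Its groups did not overlap (log2 change 1.13 ± 0.38, limma adjusted p = 0.436).

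Seed storage protein genes were low or level on both days. GLUA-2, a glutelin subunit, averaged 1.13 ± 0.35 at 3 DAP and 0.878 ± 0.142 at 2 DAP (SD, n = 3 each), with overlapping arrays, and of 8 storage protein genes on the array 3 passed the filter on low values, with a median log2 change of 0.17. The endosperm factor nf-yb1 read 0.543, 0.396 and 0.259 at 3 DAP, against 0.152, 0.239 and 0.301 at 2 DAP, with replicate 3 again inside the 2 DAP range (limma adjusted p = 0.755). OsVP1, the abscisic acid response factor of seed maturation, read 0.329, 0.391 and 0.459 at 3 DAP, against 0.173, 0.228 and 0.149 at 2 DAP. The 3 DAP arrays lay above all 2 DAP arrays. It was called higher with the replicate block (log2 change 0.74, limma adjusted p = 0.0382), and not without it (adjusted p = 0.243).

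Photosynthesis genes showed the largest gap between the medians with and without replicate 3: the median log2 change over 10 tested genes was 0.24 on all arrays and 0.93 without it, against -0.02 for all genes without it. The list's median deviation from the 3 DAP group mean was 0.50, 0.42 and -0.92 in replicates 1, 2 and 3, while at 2 DAP it stayed between -0.08 and 0.10. PSAH, a subunit of photosystem I, read 6.997, 8.59 and 5.84 at 3 DAP, against 3.18, 3.03 and 5.42 at 2 DAP. Its groups did not overlap, and it was the list's 1 call, higher without replicate 3 (log2 change 1.28 ± 0.26, limma adjusted p = 0.0138; 0.89 ± 0.24 and 0.201 on all arrays). CAB2R, a chlorophyll a/b binding protein of the light-harvesting antenna, read 62.9, 63.2 and 14.3 at 3 DAP, against 28.9, 31.99 and 31.6 at 2 DAP. The replicate 3 array at 3 DAP was below every 2 DAP array, and the other 2 were above them. LHCP, of the same antenna family, had this pattern too, with 24.6, 20.9 and 4.07 at 3 DAP, against 7.35, 8.69 and 7.25 at 2 DAP.

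In cell division the differences ran the other way. All 8 genes of the mitosis list had a log2 change below 0, with a median of -0.87 on all arrays and -1.11 without replicate 3. Of the 8, 3 lay wholly below their 2 DAP arrays, against 3.4% of all genes tested. None was called on all arrays in limma. At an unadjusted p under 0.05 were 6, all lower, against 628 lower of all 15275 genes tested. CYCB1-1, a B-type cyclin that carries cells into mitosis, read 4.42, 2.81 and 2.78 at 3 DAP, against 9.05, 8.08 and 4.51 at 2 DAP. Its 3 DAP arrays were all below the 2 DAP arrays, and it was called lower with the replicate block (log2 change -1.06, limma adjusted p = 0.0327; 0.398 without the block). CDKB2-1, the plant-specific B-type kinase of the entry into mitosis, read 3.52, 2.43 and 1.55 at 3 DAP, against 5.84, 7.58 and 2.84 at 2 DAP. Replicate 3 was the lowest array of each day, which made the groups overlap, and without it the gene was called lower (-1.15 ± 0.26, limma adjusted p = 0.0305; 0.25 on all arrays).

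CYCA2-1, an A-type cyclin, was the other call of this list without replicate 3 (-1.19 ± 0.26, limma adjusted p = 0.024). It read 2.08, 1.45 and 2.25 at 3 DAP, against 3.71, 4.60 and 2.49 at 2 DAP. The 2 genes named CYCB2, LOC4342121 and LOC4336670, had log2 changes of -1.03 and -0.90, and CYCA3-2 had -0.60. CycB1-1 (LOC4326914) and CYCA1-4 were close to level, at -0.22 and -0.05.

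Kinesin genes were added as a list after their values were seen, so their counts are a description. Of 31 tested, 29 had a log2 change below 0, with a median of -0.44 (-0.62 without replicate 3). Of the 31, 8 were called lower without replicate 3 in limma, against 0.773% of all genes tested. With the replicate block 4 were called lower, against 0.275%. Wholly below their 2 DAP arrays lay 3, against 3.4% of all genes tested, and 28 overlapped. KIN10C read 0.980, 0.820 and 1.70 at 3 DAP, against 3.37, 3.23 and 1.75 at 2 DAP. Every 3 DAP array was below every 2 DAP array, although the replicate 3 arrays nearly met (log2 change -1.74 ± 0.22 without replicate 3, limma adjusted p = 0.000181; -1.17 ± 0.25 and 0.0699 on all arrays, 0.0438 with the replicate block). OsKCH1, a kinesin with a calponin homology domain that binds actin, read 0.387, 0.222 and 0.243 at 3 DAP, against 1.10, 1.05 and 0.385 at 2 DAP (-1.49 ± 0.21 without replicate 3, limma adjusted p = 0.000888; 0.0749 on all arrays, 0.0243 with the replicate block). KIN12C read 2.40, 1.497 and 1.29 at 3 DAP, against 6.11, 6.28 and 2.11 at 2 DAP (-1.64 ± 0.26 without replicate 3, limma adjusted p = 0.00236; 0.12 on all arrays, 0.0296 with the replicate block). In OsKCH1 and KIN12C the replicate 3 array at 2 DAP lay among the 3 DAP values, and the other 2 DAP arrays were well above. The remaining calls without replicate 3 were KIN14R, KIN8B, KIN14E, KIN7C and KIN14N, with log2 changes between -1.48 and -1.02. KIN14E was also called with the replicate block (limma adjusted p = 0.0217; 0.211 on all arrays), and the probe set of KIN8B can match further transcripts. KIN14M and KIN14O were the 2 genes with changes above 0, at 0.50 and 0.25.

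**Figure D3:**
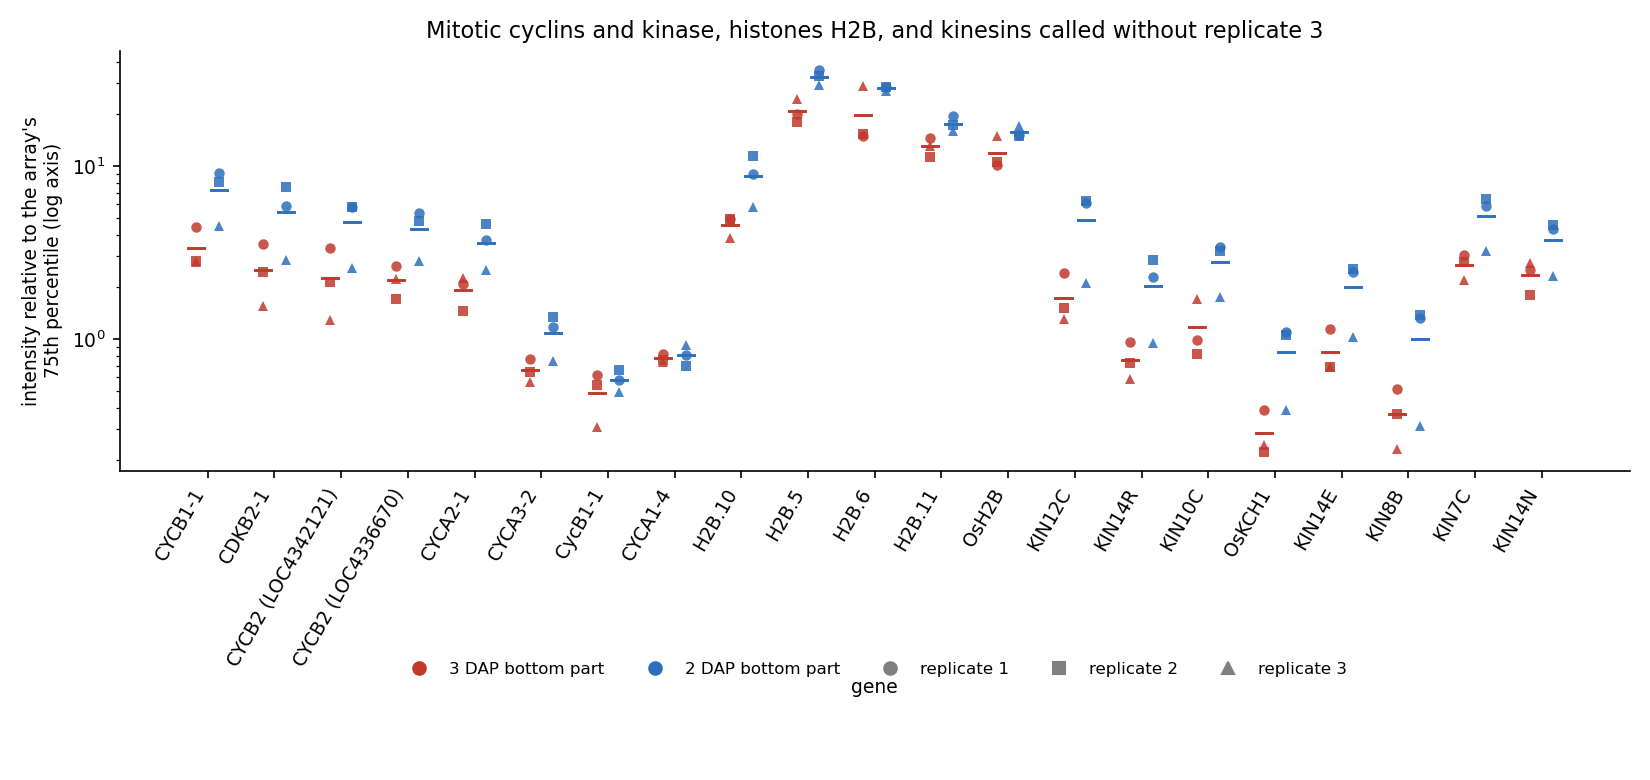
Intensity relative to the array's 75th percentile (y axis, log scale) of the 8 mitosis genes, the 5 histone H2B genes and the 8 kinesins called lower without replicate 3 (x axis), 3 DAP bottom arrays in red to the left of 2 DAP bottom arrays in blue, with symbols for replicates and bars for means. In most of the cyclin and kinesin genes replicates 1 and 2 (circle, square) are well apart between the days, and the 2 DAP replicate 3 (triangle) is the lowest 2 DAP point.

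DNA replication genes had 25 of 27 log2 changes below 0, against 7688 of all 15275 genes tested, and none lay wholly below its 2 DAP arrays. Their median was -0.30 (-0.36 without replicate 3), and none was called in any of the 3 fits (all arrays, without replicate 3, replicate block). On all arrays 8 were lower at an unadjusted p under 0.05, against 628 of all 15275 genes tested. OsMCM4, a subunit of the helicase that opens origins, read 0.903, 0.694 and 0.506 at 3 DAP, against 2.13, 1.95 and 0.825 at 2 DAP. OsMCM2, of the same ring, read 1.95, 1.22 and 0.794 at 3 DAP, against 3.81, 4.40 and 1.02 at 2 DAP. In both genes replicate 3 at 2 DAP lay among the 3 DAP arrays, and the other 2 DAP arrays were above all of them (limma adjusted p = 0.422 and 0.757). The polymerase clamp OsPCNA had a log2 change of -0.78.

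All 5 histone genes on the list code for H2B. Of these, 4 had their 3 DAP arrays wholly below their 2 DAP arrays, against 3.4% of all genes tested. Their median was -0.58 (-0.85 without replicate 3), with no call in these 3 fits. On all arrays 4 were lower at an unadjusted p under 0.05, against 628 of all 15275 genes tested. H2B.5 read 19.997, 18.03 and 24.3 at 3 DAP, against 35.9, 32.9 and 29.2 at 2 DAP (log2 change -0.66 ± 0.28, limma adjusted p = 0.69). H2B.10 read 4.92, 4.95 and 3.82 at 3 DAP, against 9.01, 11.4 and 5.75 at 2 DAP (-0.87 ± 0.32, limma adjusted p = 0.516). H2B genes are close copies of one another, and which copy a probe set measured cannot be told apart here.

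CenH3, OsCMT3a and FAS2 were picked after they were called lower without replicate 3. CenH3, the histone H3 of centromeres, read 2.15, 1.55 and 2.88 at 3 DAP, against 4.15, 3.82 and 2.96 at 2 DAP, with no overlap (-1.07 ± 0.25, limma adjusted p = 0.0338; 0.31 on all arrays). OsCMT3a, a chromomethylase that maintains DNA methylation outside CG sites, read 1.38, 0.821 and 0.928 at 3 DAP, against 2.82, 2.94 and 1.06 at 2 DAP (-1.33 ± 0.29 without replicate 3, limma adjusted p = 0.0277). FAS2, a subunit of chromatin assembly factor 1, read 0.530, 0.362 and 0.450 at 3 DAP, against 0.986, 1.13 and 0.524 at 2 DAP (-1.06 ± 0.26 without replicate 3, limma adjusted p = 0.0496). OsCMT3a and FAS2 overlapped between the days through replicate 3 at 2 DAP. Over the 7 Polycomb and DNA methylation genes the median was -0.15 (-0.35 without replicate 3), 3 changes were above 0, and OsCMT3a was the 1 call, lower without replicate 3. EZ1, a Polycomb methyltransferase, had all 3 DAP arrays above all 2 DAP arrays by a log2 change of 0.19.

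Among the embryo patterning factors OSH1 stood out. OSH1 is a class I KNOX homeobox gene, expressed in the meristems of shoots and in the globular embryo where the shoot will form. It read 4.87, 4.96 and 4.997 at 3 DAP, against 10.98, 12.2 and 5.74 at 2 DAP. The 3 DAP arrays were nearly equal and all below the 2 DAP arrays, of which replicate 3 was the lowest. Its log2 change was -0.88 ± 0.25 on all arrays (limma adjusted p = 0.253) and -1.22 ± 0.26 without replicate 3, where it was called (adjusted p = 0.0216). Its bottom-part mean was 20.9 ± 3.7 before pollination and 19.97 ± 1.4 at 1 DAP (SD, n = 3 each), the first of these with no embryo in the sample. In the top part it was 0.0595 at 3 DAP and 0.0612 at 2 DAP (means of 2 arrays), near the lowest values of the arrays. OSH71, a related KNOX gene, had a log2 change of -0.69. The list of 18 tested genes as a whole was near level, with a median of -0.05.

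Cytokinin genes gave 1 call in each direction without replicate 3. LOGL3, of the family of enzymes that release active cytokinin, read 0.650, 0.662 and 0.286 at 3 DAP, against 2.59, 3.74 and 0.435 at 2 DAP (-2.04 ± 0.49 without replicate 3, limma adjusted p = 0.0474; 0.517 on all arrays). OsRRA19, an A-type response regulator, read 0.678, 0.651 and 0.217 at 3 DAP, against 0.212, 0.176 and 0.218 at 2 DAP (1.295 ± 0.24 without replicate 3, limma adjusted p = 0.00786). The replicate 3 arrays of the 2 days were nearly alike for OsRRA19 and closer than the other replicates for LOGL3. OsARF8, an auxin response factor, had no overlap, at 5.67, 4.55 and 3.72 at 3 DAP, against 10.8, 11.6 and 6.56 at 2 DAP. It was called lower with the replicate block (log2 change -1.01, limma adjusted p = 0.04995) and not without it (adjusted p = 0.216). The 53 tested auxin genes, OsARF8 among them, had a median of -0.08, with 25 changes above 0 and 28 below. None was called on all arrays in limma. An unadjusted p under 0.05 was reached by 1 higher and 3 lower, against 503 and 628 of all 15275 genes tested. The list's 2 largest log2 changes were rises, in SAUR39 (1.496) and IAA9 (1.096), both with overlapping arrays (limma adjusted p = 0.836 and 0.884).

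Of the floral organ factors, 8 of 10 had log2 changes below 0, with a median of -0.27 (-0.41 without replicate 3) and no call. OsMADS16, the B-class gene of stamens and lodicules, read 3.67, 4.74 and 3.53 at 3 DAP, against 8.70, 7.90 and 4.89 at 2 DAP, without overlap (limma adjusted p = 0.518). Of 11 ovule and nucellus factors, 10 had a change below 0, with a median of -0.17. DL, the YABBY gene of carpel identity, read 1.10, 1.26 and 0.857 at 3 DAP, against 1.70, 2.18 and 1.45 at 2 DAP, also without overlap (limma adjusted p = 0.698).

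Genes of diterpenoid phytoalexins, the antimicrobial compounds of rice, and WRKY factors had 16 of 19 log2 changes below 0, with a median of -0.76 (-0.63 without replicate 3). Of the 19, 7 lay wholly below their 2 DAP arrays, against 3.4% of all genes tested. None was called on all arrays in limma. At an unadjusted p under 0.05 were 9, all lower, against 628 lower of all 15275 genes tested. OsWRKY24 read 1.62, 1.23 and 2.91 at 3 DAP, against 5.13, 3.56 and 3.44 at 2 DAP, and was the 1 call without replicate 3 (-1.51 ± 0.36, limma adjusted p = 0.0428). Among the others, 4 belong to the momilactone pathway, whose genes lie side by side in the rice genome: OsCPS4, OsKSL4, CYP99A2 and OsMAS. OsCPS4, the cyclase of its first step, read 0.575, 0.665 and 0.317 at 3 DAP, against 1.06, 1.52 and 0.851 at 2 DAP. CYP99A2, a cytochrome P450 of the same cluster, read 0.809, 1.16 and 0.617 at 3 DAP, against 1.85, 2.60 and 1.34 at 2 DAP. In both, replicate 2 was the highest and replicate 3 the lowest array of each day, and the days did not overlap (limma adjusted p = 0.536 and 0.693). OsKO4, a kaurene oxidase-like P450, and OsKSL7, a diterpene synthase, were the last of the 7, with log2 changes of -1.06 and -0.72. The list's 2 largest log2 changes, in OsWRKY76 and CYP71Z7 (both -1.47), came with overlapping arrays.

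PAL06, 4CL5, AOS and OsNPR3 were named as 4 of the 12 largest non-overlapping differences below 0, and none was called. PAL06, a phenylalanine ammonia-lyase, read 1.49, 1.23 and 0.514 at 3 DAP, against 4.64, 4.66 and 2.01 at 2 DAP (log2 change -1.70 ± 0.53, limma adjusted p = 0.327). 4CL5, a 4-coumarate:CoA ligase of the same pathway, read 2.39, 2.52 and 2.03 at 3 DAP, against 7.17, 6.95 and 2.57 at 2 DAP (-1.09 ± 0.45, limma adjusted p = 0.655). AOS, the allene oxide synthase of jasmonate synthesis, read 3.01, 2.54 and 2.34 at 3 DAP, against 7.51, 6.61 and 3.25 at 2 DAP (-1.02 ± 0.32, limma adjusted p = 0.327). The 14 tested lignin and peroxidase genes, 4CL5 among them, had a median of -0.04 and 6 changes above 0. Of the 14, 2 had all 3 DAP arrays below all 2 DAP arrays, against 3.4% of all genes tested. In PAL06, 4CL5 and AOS replicate 3 was the lowest array of each day. OsNPR3, a relative of the salicylic acid receptor NPR1, read 1.09, 1.09 and 0.850 at 3 DAP, against 3.07, 2.59 and 1.91 at 2 DAP (-1.20 ± 0.30, limma adjusted p = 0.139). The 9 tested defence proteins, chitinases and PR proteins among them, had 7 changes below 0 and a median of -0.48. OsC3H23, a CCCH zinc finger protein, was called lower with the replicate block (log2 change -1.16, limma adjusted p = 0.0243; 0.169 without the block).

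Heat shock genes had 31 of 45 log2 changes above 0 with a median of 0.27. Of the 45, 8 lay wholly above their 2 DAP arrays, against 4.5% of all genes tested. None was called on all arrays in limma and none had an unadjusted p under 0.05. The list's 2 largest log2 changes were in HSP16.9B (1.52) and HSP21.9 (1.43), both with overlapping arrays. CLPB1, the disaggregase also known as HSP101, read 2.51, 2.61 and 3.86 at 3 DAP, against 1.27, 0.757 and 1.94 at 2 DAP (log2 change 1.16 ± 0.72, limma adjusted p = 0.836). HSP18.6, a small heat shock protein whose probe set can match further transcripts, read 8.99, 8.44 and 14.2 at 3 DAP, against 6.35, 2.07 and 6.73 at 2 DAP (1.17 ± 0.96, limma adjusted p = 0.841). Replicate 3 was the highest array of each day in both genes, and replicate 2 the lowest at 2 DAP. The 10 tested genes of low oxygen and sugar starvation had a median log2 change of 0.25, and their median deviation from the group mean was -0.01, -0.42 and 0.48 at 3 DAP, against 0.34, -0.76 and 0.46 at 2 DAP. OsNSHB2, a non-symbiotic haemoglobin induced by low oxygen, read 14.6, 11.8 and 46.4 at 3 DAP, against 14.2, 1.25 and 24.6 at 2 DAP, which spans the days. The list's largest log2 change was in AMY1.3, at 1.71, also with overlapping arrays.

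**Figure D4:**
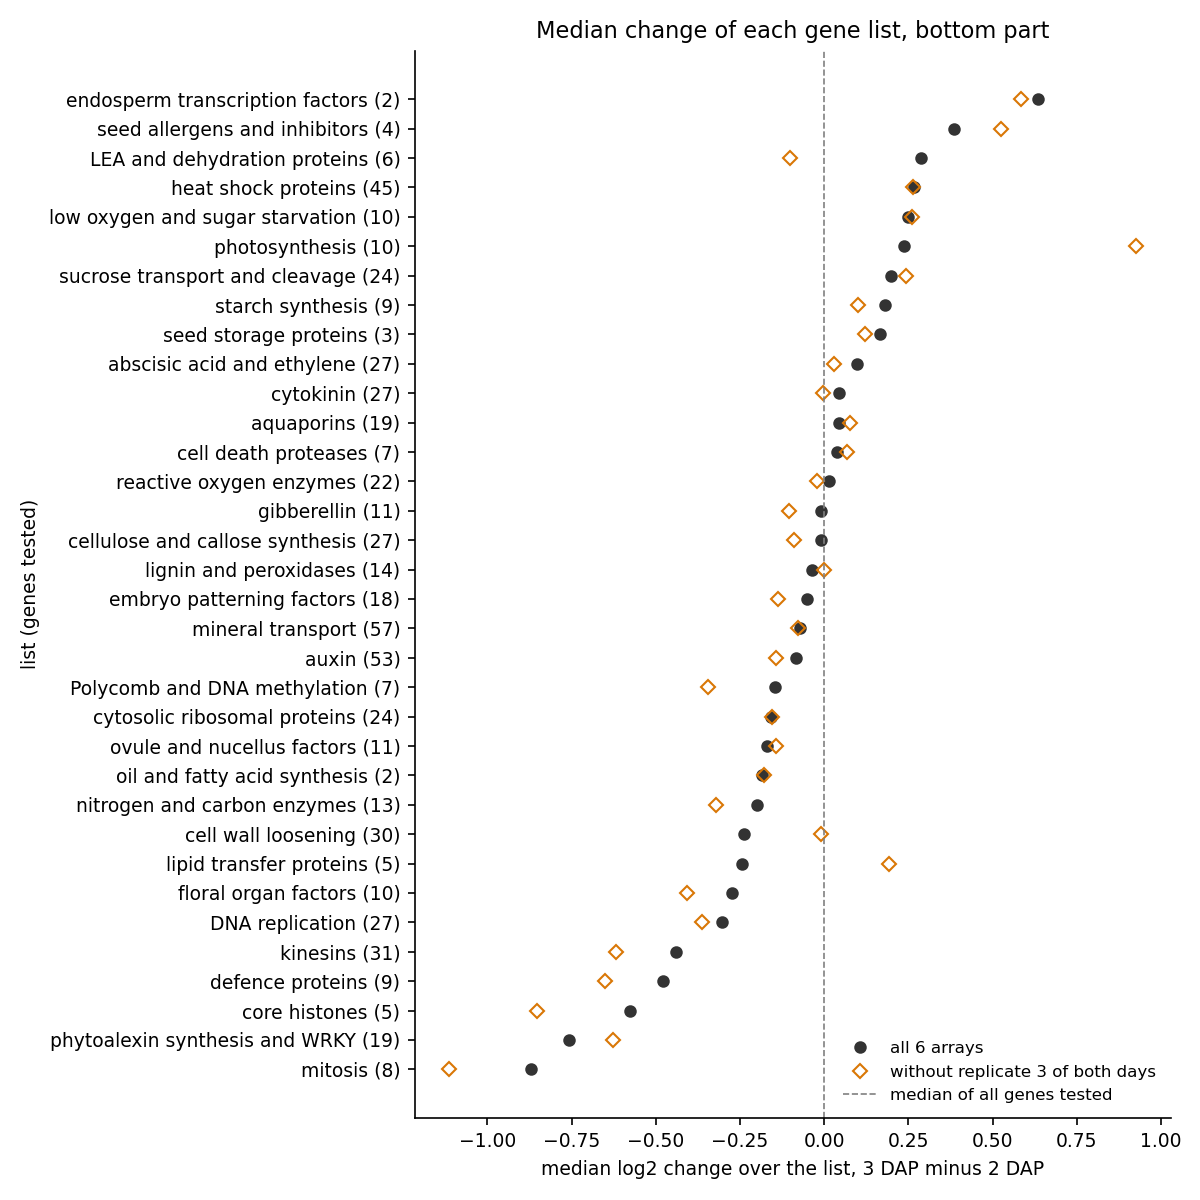
Median log2 change, 3 DAP minus 2 DAP, over each gene list (x axis; lists with the number of genes tested on the y axis), on all 6 arrays (filled circles) and without replicate 3 of both days (open diamonds), with the median of all genes tested dashed. Mitosis, at -0.87 and -1.11, is the lowest list in both, and photosynthesis differs most between the 2 markers to the right, at 0.24 and 0.93.

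The other lists held no call on all arrays in limma. Cytosolic ribosomal proteins had 20 of 24 changes below 0 with a median of -0.16, and cell wall loosening 24 of 30 with -0.24 (-0.01 without replicate 3). Lipid transfer proteins had a median of -0.24 on all arrays and 0.19 without replicate 3, so the sign of their median hung on that replicate. The same was true of LEA and dehydration proteins (0.29 and -0.10). Medians for aquaporins, cell death proteases, reactive oxygen enzymes, gibberellin, cellulose and callose synthesis, lignin and peroxidases, mineral transport, and abscisic acid and ethylene genes were between -0.07 and 0.10. The 13 nitrogen and carbon enzymes had a median of -0.20, the 4 seed allergens and inhibitors 0.38, the 2 endosperm transcription factors 0.63 and the 2 genes of oil and fatty acid synthesis -0.18. Quantile normalisation or median centring turned the sign of the median of aquaporins, cytokinin (0.04 as scaled), cell death and reactive oxygen genes in at least 1 case.

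Without replicate 3, 34 genes with a symbol were called, 15 higher and 19 lower, and most have been given above. OsNAAT1, the nicotianamine aminotransferase of phytosiderophore synthesis for iron uptake, read 4.09, 1.72 and 0.801 at 3 DAP, against 0.482, 0.514 and 0.475 at 2 DAP. The groups did not overlap (2.15 ± 0.35, limma adjusted p = 0.00279; 1.64 ± 0.36 and 0.0838 on all arrays). PSK4, a precursor of the growth peptide phytosulfokine, read 5.80, 3.41 and 1.81 at 3 DAP, against 1.01, 0.720 and 1.49 at 2 DAP, and was called without replicate 3 (2.22 ± 0.30, limma adjusted p = 0.000523) and with the replicate block (1.56, limma adjusted p = 0.0408). OsPHO1;2, a phosphate exporter that loads phosphate within the grain, read 1.99, 1.22 and 0.449 at 3 DAP, against 0.467, 0.548 and 0.559 at 2 DAP (1.41 ± 0.28 without replicate 3, limma adjusted p = 0.0149). In PSK4 replicate 3 brought the days close together, and in OsPHO1;2 it reversed their order.

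OsGER3 read 36.7, 35.6 and 2.03 at 3 DAP, against 5.97, 6.76 and 3.45 at 2 DAP, and was called higher without replicate 3 (2.48 ± 0.56, limma adjusted p = 0.0332; 0.818 on all arrays). The replicate 3 array at 3 DAP was the lowest of the 6. The remaining genes called higher there were OsTF1, LP02, OsMADS22, OsAPx08 (an ascorbate peroxidase) and LOC4349271, with log2 changes between 0.88 and 1.32. The probe set of OsMADS22 can match further transcripts. The remaining genes called lower were OsERG1, 4CLL7 and OsBRXL2, with changes of -1.12, -1.31 and -0.88.

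The label of the bottom part was set against marker genes. Of 25 markers fixed, 17 were matched by name in the annotation of the array. A marker without a match was not shown to be absent from the array. Nucellus and ovule markers were at clear levels on both days: OsMADS29 averaged 4.204 ± 1.87 at 3 DAP and 4.91 ± 0.62 at 2 DAP (SD, n = 3 each). The epidermal marker ROC1 averaged 4.53 ± 0.79 at 3 DAP and 4.23 ± 0.59 at 2 DAP, and the embryo factor OsWOX9 was near the low end at 0.212 ± 0.060 and 0.160 ± 0.040. The summed level of 4 embryo markers, OSH1 among them, was 11.7 to 12.9 at 3 DAP and 11.7 to 20.8 at 2 DAP. The 3 endosperm markers summed to 1.41 to 1.83 at 3 DAP and 1.06 to 1.39 at 2 DAP, with GLUA-1 close to the lowest values on every array. The probe set of GLUA-1 can match further transcripts. The 2 green pericarp markers summed to 87.5, 84.1 and 18.4 at 3 DAP, against 36.3, 40.7 and 38.8 at 2 DAP, the same order as the photosynthesis list. The 5 stress markers summed to 145.0, 125.2 and 274.5 at 3 DAP, against 145.7, 53.5 and 175.4 at 2 DAP. OSH1 was higher before pollination, and ROC1 had higher means in the top part (5.399 at 3 DAP, 6.21 at 2 DAP). Neither therefore marks the embryo alone in these samples. The embryo marker OsWOX13 also had higher means there (3.597 and 4.383) than in the bottom part (2.676 and 3.209). So did OsMADS29 (8.003 and 8.588 in the top part) and OsMADS21 (8.244 and 8.917, against 5.607 and 5.951). The ovule marker OsMADS13 did not, at 11.13 and 12.796 in the top part, against 14.09 and 12.888. The levels of OsMADS29 and OsMADS21 therefore do not mark the bottom part. The part of these tissues in the changes above was not tested.

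At the other days, LOC4332927 had bottom-part means of 0.246 before pollination, 0.199 at 1 DAP, 0.472 at 2 DAP, 12.2 at 3 DAP and 30.5 at 4 DAP. Wx had means of 0.218, 0.122, 0.134, 2.57 and 14.6 over the same stages, so its 3 DAP mean lay between the days on either side. OsSUS3 had 1.04, 3.82, 7.10, 19.4 and 46.5. CYCB1-1 went the other way after an early peak, at 1.11 before pollination, 9.53 at 1 DAP, 7.22 at 2 DAP, 3.34 at 3 DAP and 3.85 at 4 DAP. CDKB2-1 had the same shape, with 1.297, 9.01, 5.42, 2.50 and 3.20. LOC4347346 peaked at 17.2 at 1 DAP, with 0.283 before pollination, 5.12 at 2 DAP, 1.31 at 3 DAP and 1.02 at 4 DAP.

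The top part went through its own step in the same days. LOC4332927 averaged 42.7 at 3 DAP and 0.450 at 2 DAP there (means of 2 arrays), and CYCB1-1 averaged 4.65 and 10.4. The other called genes that rose also had higher top means at 3 DAP than at 2 DAP, LOC4351732 only slightly. HGGT averaged 0.858 and 0.172 in the top part, OsC3H1 6.48 and 1.26, LOC4323973 12.3 and 0.144, and LOC4337864 28.8 and 0.777. For LOC4347346 the top part held 0.107 at 3 DAP and 0.184 at 2 DAP, and the difference of the steps was not called (limma adjusted p = 1). The test of bottom step minus top step called 2 of 29332 probe sets (0.00682%), with 1126 (3.84%) at an unadjusted p under 0.05. Among the named genes none was called, the lowest adjusted p being 0.913, reached by OsMADS22, LOC4347436 and LOC4326518.

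**Figure D5:**
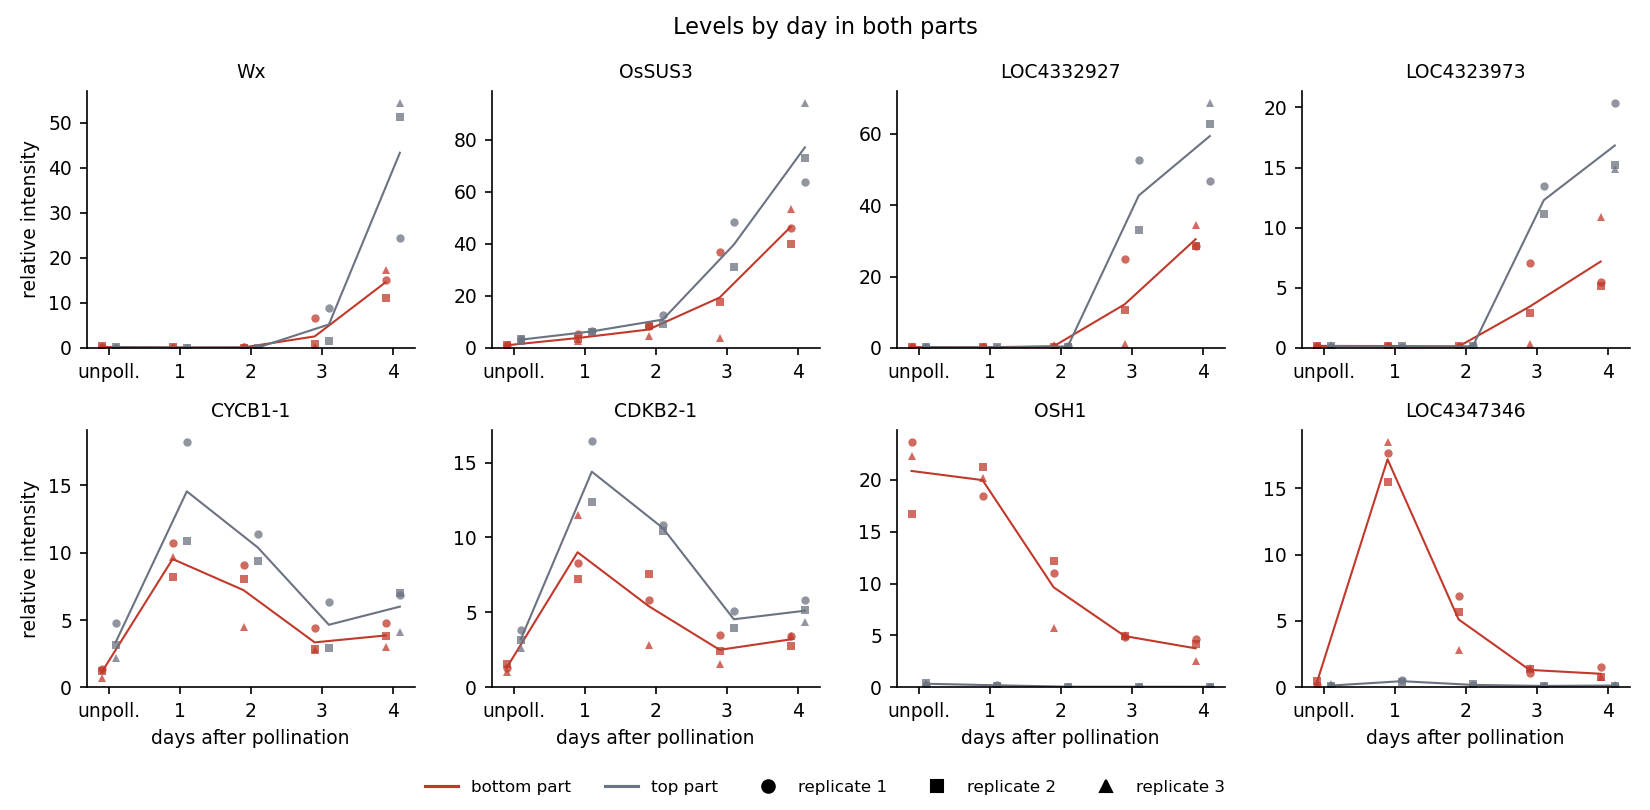
Relative intensity (y axes, linear from 0) of 8 genes chosen after their values were seen, before pollination (unpoll.) and at 1 to 4 days after pollination (x axes), in the bottom part (red) and the top part (grey), with points for arrays and lines through means. Wx, OsSUS3, LOC4332927 and LOC4323973 have higher means at 3 and 4 DAP than at 2 DAP in both parts, CYCB1-1 and CDKB2-1 peak at 1 DAP, and OSH1 and LOC4347346 have their signal in the bottom part.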

How the data were processed

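The deposited values are the authors' intensity per probe set and array. Scanner software was GCOS 1.3, per the submitters' processing notes; no source used here states how probes were summarised or background was handled, and no detection call was used. By its values, each deposited array is linear and divided by its own 75th percentile. No genome build is given, so no coordinates are printed, and no table of sequences was used. The number of arrays limits the precision.

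Of 57258 rice probe sets (123 control probe sets left out), the 29332 whose mean over all arrays exceeded the median of all values (0.264) were tested. log2(value + 0.13) was fitted in limma 3.58.1 (R 4.3.3) with a mean for each of 10 groups over 27 arrays, empirical Bayes moderation with an intensity trend, and Benjamini-Hochberg adjustment, leaving 17 residual degrees of freedom. Summaries used Python 3.11.15. Of the rice probe sets, 22436 had 1 gene and 95 several in the platform annotation; they reached 17905 genes, 2456 with a symbol in RefSeq's table.

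Same-numbered arrays of the 2 days deviated together (r = 0.286, 0.578 and 0.705 for replicates 1, 2 and 3, although 3 DAP replicate 1 correlated better with 2 DAP replicate 2, at 0.534). Each same-number r was above 0.1, so the numbers from the titles were taken to pair the arrays. That cutoff is not a test of pairing, because deviations from a group mean sum to 0. The block on all arrays also joined same-numbered arrays of the other groups, where pairing was not looked at. The titles do not say what a shared number stands for. The fit with the replicate block is given where it changed the call of a named gene. Genes were first picked by rule. The picks were the 12 largest non-overlapping differences each way among genes with a symbol, and the 3 largest calls each way with a locus number. From each of 33 lists up to 4 called genes were picked, or else its 2 largest changes. Not every pick is given above, and those left out include genes with overlapping arrays. Genes called without replicate 3 and further list members were named after their values were seen. Members, lists and tests were chosen with earlier results of these data known. Alternatives covered left-out arrays, the block, the arrays fitted, array weights, pseudocount, filter, normalisation, trend, an 18S covariate and averaging of probe sets. One, the block on the 15 bottom arrays, was chosen after seeing the data.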

Additional observations from a re-analysis of the deposited data

Results flagged for a closer look

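The step between days differed between the parts for 2 probe sets by the interaction term in limma. LOC4332568 read 12.6, 13.8 and 9.90 in the 3 DAP bottom parts, against 22.0, 18.4 and 14.9 in the 2 DAP bottom parts, and 9.19 and 8.25 in the 3 DAP top parts, against 1.45 and 1.29 in the 2 DAP top parts. Its log2 change was -0.60 in the bottom part and 2.56 in the top part, a difference of -3.159 (adjusted p = 0.0382; 0.0763 without replicate 3 of both bottom days). A probe set with no gene in the annotation used read 0.117, 0.107 and 0.204 in the 3 DAP bottom parts, against 0.208, 0.204 and 0.131 in the 2 DAP bottom parts, and 0.139 and 0.111 in the 3 DAP top parts, against 1.11 and 1.10 in the 2 DAP top parts. Its difference was 2.078 (limma adjusted p = 0.00189; 0.0104 without replicate 3), carried by the top part.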

How the results depend on the processing

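Leaving out 1 array at a time gave 0 to 304 calls against 20 on all arrays, and 1 to 3 calls of a difference between the parts against 2. The count was 335 without replicate 3 of both days and 381 without replicate 3 at 2, 3 and 4 DAP (5 part differences). The replicate block gave 93 calls on all arrays, 0 on the 6 arrays (3486 at an unadjusted p under 0.05) and 0 on the 15 bottom arrays (2742); without the block, the 6 arrays gave 0 (1172) and the 15 bottom arrays 0 (1515). Array weights gave 4975 calls (14 part differences), a pseudocount of 0.03 gave 11 (0 part differences, 1090 unadjusted), a pseudocount of 0.5 gave 21 (4), no filter gave 13, and a mean above 1 gave 14 (1). Lower calls were 1 of 11 at pseudocount 0.03, against 5 of 20. Quantile normalisation and median centring gave 23 and 14 calls and moved the median of the tested probe sets by less than 0.1 (0.03 as scaled, -0.00 and -0.02).

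Of 2622 gene values under 23 alternatives, 2267 kept direction and side of the threshold, 180 gained a call, 154 lost one and 21 turned sign; the cause was not tested. All turned values belonged to genes not called. With array weights IAA9 gave -0.75, GSTU1 -0.20, OsCCR1 -0.98, RBBI3.3 -0.17, OsDGAT1-1 -0.14, OC-X 0.12, AP25 0.028 and OsPIP2;4 0.11. Without replicate 3 of both days, or at 2, 3 and 4 DAP, OsDGAT1-1 gave -0.11 and OC-X 0.068. Leaving out 1 array at a time gave ranges of -0.24 to 1.92 for IAA9, -0.15 to 1.70 for GSTU1, -0.51 to 1.49 for OsCCR1, -0.20 to 1.22 for RISBZ5, -0.35 to 0.95 for RBBI3.3, -0.086 to 0.38 for OsDGAT1-1, -0.97 to 0.089 for OsKCS20 and -1.10 to 0.22 for AP25.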
